A study of Rattus norvegicus with 44 samples.

Results

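A set of 9 genes of adult neurogenesis was followed across the dentate gyrus of 44 male F344 rats, from the dividing precursor to the young granule neuron. The genes were chosen by name (Dcx, Sox11, Sox4, Neurod1, Igfbpl1, Draxin, Calb2, Mki67 and Top2a), and 8 of the 9 have values among the 18347 gene identifiers of the deposited table. Sox4 was not analysed here. Each rat gave 1 library of polyadenylated RNA from the dissected dentate gyrus. The YNG group held 10 rats of 6 months that received vehicle. Treatment of the older rats ran from 12 to about 18 months of age, and they received vehicle (AV, 12 rats), ABT-263, also named navitoclax, an inhibitor of the BCL-2 family (AA, 11 rats, 12 mg/kg), or dasatinib, a tyrosine kinase inhibitor, with quercetin, a plant flavonoid (ADQ, 11 rats, 1.2 and 12 mg/kg). Each treatment was given by gavage for 5 days in each of 8 cycles with breaks of 2 weeks, with a final round after the behavioral tests and tissue collection 2 weeks later.

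The dentate gyrus keeps making granule neurons after birth. Radial glia-like stem cells in the subgranular zone divide into intermediate progenitors, which leave the cell cycle, pass through an immature stage with migrating processes, and join the granule cell layer as mature neurons. The output of this lineage declines from youth to middle age in rodents. Mki67 encodes a protein of the chromosome surface in dividing cells, and Top2a the DNA topoisomerase that untangles chromosomes before division. Sox11 encodes a transcription factor of committed neuronal precursors, and Neurod1 a basic helix-loop-helix factor needed for granule neurons to mature and kept in mature granule cells. Dcx encodes doublecortin, the microtubule protein that marks migrating and immature neurons. Igfbpl1 encodes an insulin-like growth factor binding protein-like secreted protein, Draxin a secreted axon guidance protein, and Calb2 calretinin, a calcium-binding protein of the late immature stage that interneurons and Cajal-Retzius cells also carry.

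The promoters of 4 of these genes are shown because the differences below turn on them: Dcx and Igfbpl1 fell in the older rats beyond the adjusted threshold, and Mki67 and Top2a stood high in the same 3 rats. Each sequence is the 250 bases before the annotated start of transcription, read 5′ to 3′ on the minus strand of the GRCr8 build, from RefSeq. Dcx lies at chrX:112304162-112304411, Igfbpl1 at chr5:64887462-64887711, Mki67 at chr1:199952594-199952843 and Top2a at chr10:84473094-84473343. Capitals mark CCAAT boxes (the letters CCAAT on either strand) and the cell cycle homology region, CHR (the letters TTTGAA or instead TTTAAA on either strand), which are common in promoters of mitotic genes. E-boxes, to which basic helix-loop-helix factors bind, were searched as the letters CAGCTG and as the letters CAGATG on either strand, and hold no match in these 4 windows. They are in 12% and 14% of all promoters.
Dcx: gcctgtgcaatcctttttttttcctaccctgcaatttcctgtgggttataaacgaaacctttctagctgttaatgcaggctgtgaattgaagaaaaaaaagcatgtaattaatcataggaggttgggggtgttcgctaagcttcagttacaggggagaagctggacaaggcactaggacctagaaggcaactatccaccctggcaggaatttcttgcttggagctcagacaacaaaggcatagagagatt
Igfbpl1: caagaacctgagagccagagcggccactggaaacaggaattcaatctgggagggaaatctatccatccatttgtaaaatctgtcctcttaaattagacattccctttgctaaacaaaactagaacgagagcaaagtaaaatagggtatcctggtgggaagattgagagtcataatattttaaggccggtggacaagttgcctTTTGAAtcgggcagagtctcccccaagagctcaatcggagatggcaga
Mki67: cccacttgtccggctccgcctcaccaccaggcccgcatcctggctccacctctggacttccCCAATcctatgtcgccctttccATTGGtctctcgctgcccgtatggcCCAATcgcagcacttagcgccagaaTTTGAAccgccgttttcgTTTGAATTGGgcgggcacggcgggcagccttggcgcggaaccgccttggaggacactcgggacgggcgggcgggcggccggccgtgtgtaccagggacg
Top2a: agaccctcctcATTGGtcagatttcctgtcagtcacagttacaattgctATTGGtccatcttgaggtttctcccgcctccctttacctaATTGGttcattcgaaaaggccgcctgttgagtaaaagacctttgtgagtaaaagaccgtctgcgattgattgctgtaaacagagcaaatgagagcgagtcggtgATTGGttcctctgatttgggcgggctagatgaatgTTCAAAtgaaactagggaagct
The Mki67 and Top2a windows each hold 4 CCAAT boxes. Mki67 also has 2 CHR matches, of which one overlaps a CCAAT box, and Top2a has 1. Of 33469 promoters of the same length in the table, 34% hold at least 1 CCAAT box, 25.4% a CHR match, and 0.114% hold 4 or more CCAAT boxes together with a CHR. Igfbpl1 has 1 CHR match, 48 bases before the start, and the Dcx window has none of these letters. Matches in the letters are a description of these windows and were not tested as sites.

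In all, 5 rats stood apart from the rest in cerebellar genes or in genes of cytotoxic lymphocytes. AA rat 3988 carried cerebellar genes, with Gabra6 at 2538, Cbln3 at 2164 and Fat2 at 6184 in median-ratio normalized units, against at most 6.02, 13.1 and 10.9 in the other 43 rats. A further 4 AV rats (3989, 3999, 4009 and 4568) carried genes of cytotoxic lymphocytes. In these 4 rats Prf1, which encodes perforin, lay between 198.9 and 460.7, while the other 40 rats reached at most 13.9 and 9 of them were listed at 0. Nkg7 lay between 33.3 and 214.3 in the 4 rats and at most at 3.13 in the others. Over the T and NK cell list, 5 of 8 genes have values, and the summed level ran from 2.14 to 788.0 in AV, 7.52 to 122.1 in YNG, 3.11 to 127.3 in AA and 5.58 to 102.0 in ADQ. Cd8a of that list lay between 6.52 and 116.8 in the 4 rats and at most at 3.40 in the others. The T cell gene Cd3e, which enters the same sums, did not follow Prf1. Cd3e ran from 1.07 to 159.4 in the 4 rats (median 15.3) and from 0 to 233.1 in the other 40 (median 47.0). Prox1, the defining transcription factor of granule cells, was measured in all 44 rats and was lowest in AA rat 4107 (608.7) and AV rat 3989 (972.5), against 3811 in the highest rat. The summed level of the CA1 pyramidal cell list was highest in those same 2 rats, at 42930 and 28448. The summed choroid plexus list was highest in AV rat 4009 (1393), AA rat 3985 (983.9) and AV rat 4569 (649.9), against group medians of 63.6 to 93.9. Rats 4107, 3985 and 4569 are not among the 5 rats and stay in the fits without them. The part of dissection and of these other cells in the values below was not tested. For the 8 genes, fits without some or all of the 5 rats are given as values or as counts. For the gene lists such fits are given as counts only. In these bulk samples, fewer cells of a type and less RNA per cell cannot be told apart.

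**Figure D1:**
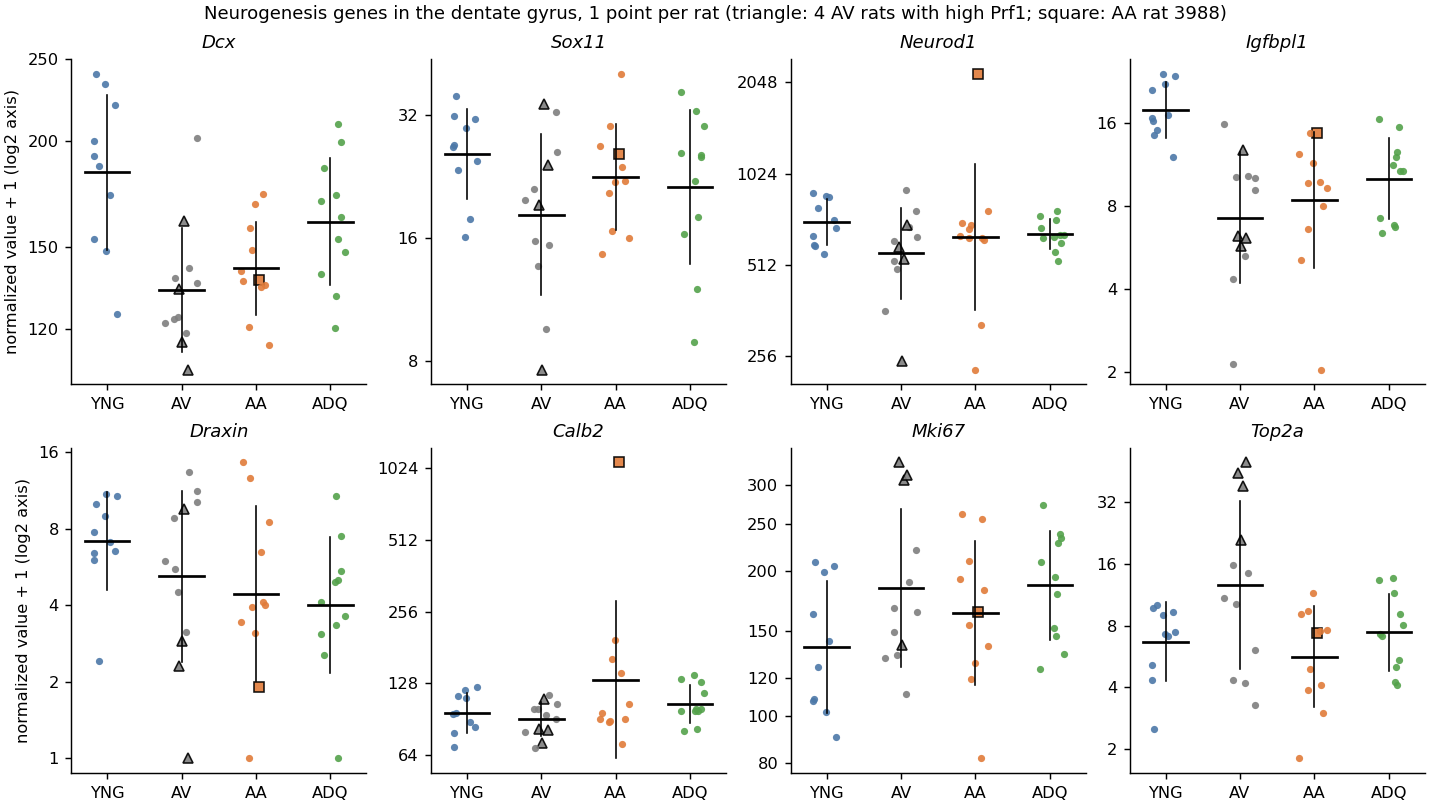
Normalized value plus 1 on a log2 axis for the 8 genes, with 1 point per rat, by group (YNG, AV, AA and ADQ). Horizontal lines are the mean and vertical lines 1 SD of the log2 values. Triangles mark the 4 AV rats with Prf1 above 100 and the square AA rat 3988, which is at 2183 for Neurod1 and 1082 for Calb2. Igfbpl1 is below the YNG median in all 34 older rats.

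Do the genes differ between older and young rats? The 2 genes of young neurons Dcx and Igfbpl1 fell in the older rats, and Mki67 rose, by the unadjusted threshold of p = 0.05 used by the study. These are 3 of the 8 genes, or 2 of 8 after adjustment. Over all 15598 genes tested, 32.4% passed the unadjusted and 14.9% the adjusted threshold in this comparison. The unadjusted count of the 8 genes therefore lies near the background.

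Igfbpl1 showed the largest fall among the 8. In YNG it ran from 11.0 to 23.1 with a median of 15.9 and a mean of 17.3 ± 4.19 (SD, n = 10). In the older groups the lowest, median and highest values were 1.13, 6.69 and 14.9 for AV rats, 1.04, 8.72 and 13.7 for AA rats, and 5.38, 9.69 and 15.5 for ADQ rats. All 34 older rats lay below the YNG median, and 26 of the 34 lay below the lowest YNG rat. The older mean was 48.4% of the YNG mean. The log2 difference of value plus 1 was -1.07 (SE 0.24, 95% interval -1.55 to -0.59, limma p = 4.9e-05, adjusted p = 0.00567). Igfbpl1 rests on few reads, between 1 and 26 per rat as estimated from the steps of the values. The fall was -0.97 in the first series of rat numbers (rats up to 4011 and V1 to V6) and -1.09 in the second (4031 and above and V9 to V12), with p = 0.0004 and p = 0.0219 in the limma fits and adjusted p = 0.0054 and 0.483.

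Dcx was lower to a smaller degree. It ran from 124.2 to 239.3 in YNG, with a median of 188.6 and a mean of 186.5 ± 38.03 (SD, n = 10). The AV rats ran from 106.6 to 201.1 (median 128.1), the AA rats from 114.0 to 172.3 (median 136.1) and the ADQ rats from 119.4 to 209.0 (median 161.7). The ranges overlapped: 9 of 34 older rats lay below the lowest YNG rat, none lay above the highest, and 31 lay below the YNG median. The older mean was 78.1% of the YNG mean, and the log2 difference was -0.34 (SE 0.09, interval -0.53 to -0.16, limma p = 0.000506, adjusted p = 0.0142). The call did not hold when every library was scaled to an equal total (log2 difference -0.21, p = 0.0691). That scaling moved the median of all genes by 0.13 upward in the older rats and raised the share of higher genes among those past the threshold from 48.4% to 83.1%. Within the first series alone Dcx differed by -0.26 (p = 0.0789), and within the second alone by -0.46 (p = 0.0006, adjusted p = 0.211).

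Sox11 and Neurod1 did not pass the threshold when all older rats were compared with YNG. Sox11 had a mean of 25.5 ± 6.16 in YNG and 21.1 ± 8.01 over the 34 older rats (SD), and the log2 difference was -0.32 (interval -0.71 to 0.07, p = 0.108, adjusted p = 0.251). Its older values spread from 6.60 to 39.4, beyond the YNG range on both sides. Neurod1 had a YNG mean of 717.5 ± 123.6 and ran from 230.8 to 2183 in the older rats, with a log2 difference of -0.21 (interval -0.56 to 0.13, p = 0.219). The highest Neurod1 value was AA rat 3988, the rat with the cerebellar genes, and the lowest 3 were AA rat 3996, AV rat 3989 and AA rat 4107. Of these, 3989 and 4107 are the 2 rats with the lowest Prox1. Without the 5 rats that stood apart, the Neurod1 difference was -0.24 (interval -0.50 to 0.03, p = 0.0783, adjusted p = 0.22).

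Draxin and Calb2 did not pass either. Draxin was close to the floor of the assay, with at most 12 estimated reads in a rat and 1 rat listed at 0 in each of AV, AA and ADQ. Its mean was 6.70 ± 2.61 in the YNG rats, 5.53 ± 3.98 in the AV rats, 4.79 ± 4.38 in the AA rats and 3.67 ± 2.64 in the ADQ rats (SD), and the log2 difference between older and YNG was -0.66 (interval -1.37 to 0.04, p = 0.0655, adjusted p = 0.183). Calb2 had a mean of 97.0 ± 18.4 in YNG and 90.6 ± 14.7 in AV, and the log2 difference for all older rats was 0.17 (interval -0.25 to 0.58, p = 0.422).

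Mki67 moved in the other direction from Dcx and Igfbpl1. The YNG rats ran from 89.7 to 207.6 with a mean of 144.3 ± 45.4 (SD, n = 10). The AV rats ran from 110.2 to 333.2 (median 164.8), the AA rats from 81.0 to 260.7 (median 163.6) and the ADQ rats from 124.0 to 271.9 (median 193.0). Of the 34 older rats, 11 lay above the highest YNG rat and 1 below the lowest. The log2 difference was 0.35 (SE 0.16, interval 0.02 to 0.68, limma p = 0.0355, adjusted p = 0.124). Without the 4 AV rats with high Prf1 it was 0.27 (p = 0.0749), and it missed the threshold without any 1 of YNG rats V1, V2, V3, V9 and V12, with the highest p of 0.0968 without V3. It was 0.42 (p = 0.0485) in the first series and 0.25 (p = 0.339) in the second. Top2a, the other gene of dividing cells, had a log2 difference of 0.27 (interval -0.39 to 0.94, p = 0.411), and of 0.0049 without the 5 rats that stood apart. Median estimated reads per rat were 179 for Mki67 and 6 for Top2a. In YNG, rat V10 was highest for Mki67 (207.6) and lowest for Top2a (1.504). AA rat 4107 was lowest of all rats for Mki67 (81.0) and for Prox1 (608.7). The highest rats were AV rat 3999 for Mki67 (333.2) and AA rat 4069 for Prox1 (3811). Whether Mki67 here follows dividing cells was not tested.

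**Figure D2:**
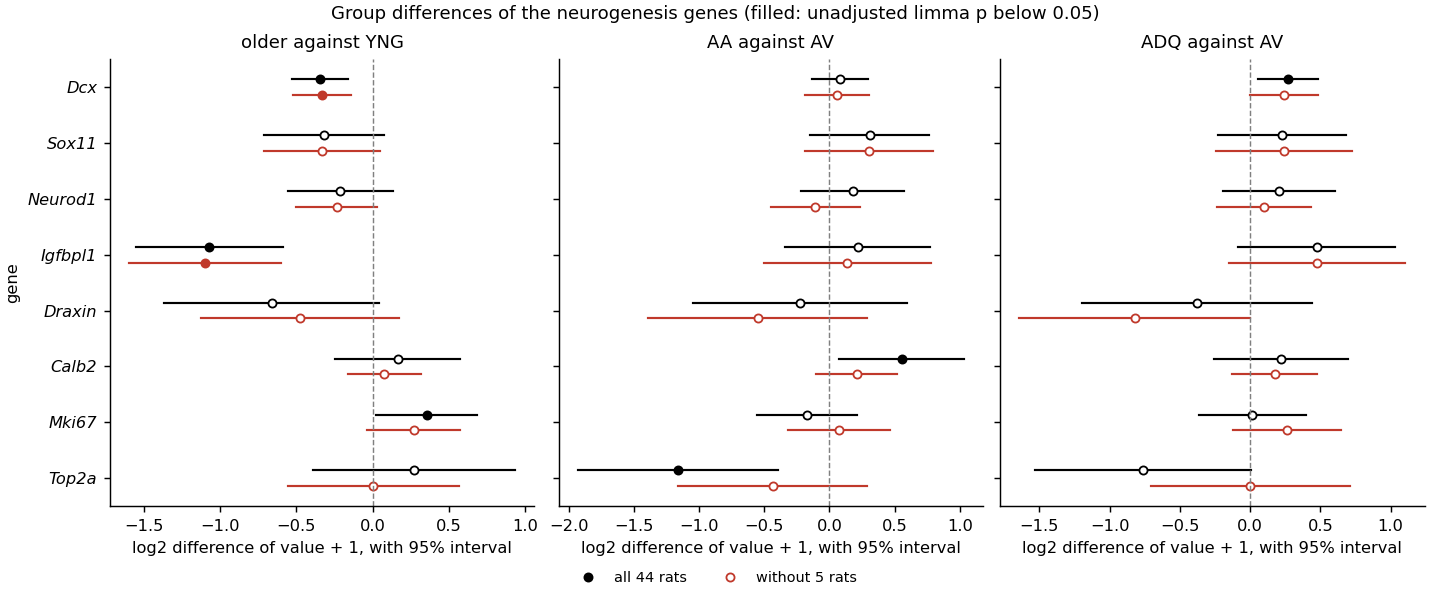
Log2 difference of normalized value plus 1 with its 95% interval for the 8 genes, in 3 comparisons (older minus YNG, AA minus AV and ADQ minus AV). Black is the fit to all 44 rats, red the fit without the 4 AV rats with high Prf1 and AA rat 3988, and a filled circle has an unadjusted limma p below 0.05. Dcx (-0.34) and Igfbpl1 (-1.07) are filled in both fits of older against YNG, while Mki67, Calb2, Top2a and, for ADQ against AV, Dcx are filled only with all rats.

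Each older group was then compared with YNG. These 3 comparisons share the YNG rats. Dcx reached 72.1% of the YNG mean in AV, 76.0% with ABT-263 and 86.9% with dasatinib and quercetin. Igfbpl1 reached 41.6%, 48.9% and 55.5% in the same order. In AV, 5 of the 8 genes passed the unadjusted threshold, against 21.3% of all genes, and 2 the adjusted one, against 2.35%. Dcx differed by -0.46 (interval -0.68 to -0.24, adjusted p = 0.0135) and Igfbpl1 by -1.30 (interval -1.87 to -0.73, adjusted p = 0.00724). Sox11 fell by 0.50 on the log2 scale (limma p = 0.0373, adjusted p = 0.205), and Mki67 (0.41, p = 0.0422) and Top2a (0.91, p = 0.0241) rose. Without the 4 AV rats with high Prf1, Mki67 differed by 0.16 (p = 0.413) and Top2a by 0.15 (p = 0.678). In that fit 3 of the 8 genes passed, and 0 passed after adjustment. Of all 15551 genes tested in it, 1448 passed unadjusted and 38 adjusted, against 367 adjusted with all rats. With AA rat 3988 left out too, 3 of the 8 passed unadjusted, against 9.43% of all genes. Of the 44 fits that leave out 1 rat, Sox11 missed the unadjusted threshold in 9, Mki67 in 10 and Top2a in 4, with p up to 0.0919, 0.0947 and 0.0621.

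In AA, 2 of the 8 genes passed both thresholds against YNG, Dcx (-0.38, interval -0.60 to -0.15, adjusted p = 0.0478) and Igfbpl1 (-1.08, interval -1.67 to -0.50, adjusted p = 0.037). When each of the 44 rats was left out in turn, the adjusted call was lost in 27 fits for Dcx (adjusted p up to 0.0983, without YNG rat V2) and in 12 fits for Igfbpl1 (up to 0.0787, without YNG rat V1), and no unadjusted call was lost. Of all genes 26.6% passed unadjusted and 3.85% adjusted. In ADQ, Igfbpl1 (-0.83, interval -1.41 to -0.24, p = 0.0065, adjusted p = 0.0654) and Mki67 (0.42, interval 0.02 to 0.82, p = 0.0385, adjusted p = 0.154) passed unadjusted only, so that 0 of the 8 passed the adjusted threshold in limma, where 28.1% and 7.08% of all genes did. Mki67 missed the unadjusted threshold in 10 of the 44 fits without 1 rat (p up to 0.0859). Dcx differed between ADQ and YNG by -0.19 (interval -0.42 to 0.03, p = 0.0904). Draxin differed by -0.84 (interval -1.70 to 0.02, p = 0.0551), and was past the threshold by permutation (p = 0.0209) and without the 4 AV rats with high Prf1 (p = 0.0366), which enter this comparison only through the shared spread.

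Did either treatment change the genes in the older rats? In ADQ against AV, Dcx was the 1 gene of 8 past the unadjusted threshold, against 9.32% of all genes, and 0 of the 8 and 0% of all genes passed after adjustment in limma. The ADQ mean of Dcx was 162.1 ± 28.1 (SD, n = 11) and the AV mean 134.4 ± 25.3 (SD, n = 12). The groups overlapped, with AV rat 4011 at 201.1 inside the upper part of the ADQ range and ADQ rat 4005 at 119.4 inside the lower part of the AV range. The log2 difference was 0.27 (SE 0.11, interval 0.05 to 0.48, limma p = 0.0152, adjusted p = 0.428, permutation p = 0.0183). It was 0.13 (p = 0.477) in the first series and 0.40 (p = 0.0033, adjusted p = 0.455) in the second. It was 0.24 without the 4 AV rats with high Prf1 (p = 0.0507) and 0.10 relative to the mature granule cell markers (p = 0.541). Relative to those markers the median of all genes in ADQ against AV was -0.16, against 0.0081 in the main fit. The share of higher genes among those past the threshold was 2.27%, against 36.7%. Sox11 (0.23, interval -0.23 to 0.68), Neurod1 (0.21, interval -0.19 to 0.61), Igfbpl1 (0.47, interval -0.08 to 1.03) and Mki67 (0.02, interval -0.36 to 0.40) did not pass, and these intervals hold differences in either direction. The difference between ADQ and AA in Dcx had an interval of -0.40 to 0.03 for AA minus ADQ (p = 0.0972, adjusted p = 0.981). In AA against ADQ, 0 of the 8 genes passed either threshold in limma, against 4.53% of all genes unadjusted and 0% adjusted.

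In AA against AV, Calb2 rose and Top2a fell, 2 of the 8 genes, against 4.51% of all genes. None of the 8 and 0% of all genes passed after adjustment in limma. Both calls depended on rats that stood apart. The Calb2 values in AA were 1082 in rat 3988, 193.0 in rat 3996, 161.4 in rat 4070, 141.2 in rat 4107, and between 70.6 and 104.0 in the other 7 rats, against 67.9 to 113.1 in AV. The log2 difference was 0.55 (SE 0.24, interval 0.08 to 1.03, limma p = 0.0238, adjusted p = 0.999), and without rat 3988 it was 0.25 (p = 0.0739). Calretinin is also carried by cerebellar granule cells, whose gene Gabra6 was at 2538 in rat 3988. Dcx in that rat was 136.1, the AA median, and Sox11 was 24.7. The part of cerebellar cells in the Calb2 value of this rat was not tested.

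Top2a had a mean of 17.5 ± 16.4 in AV and 5.40 ± 3.04 in AA (SD), and 6.199 ± 2.51 in YNG and 7.08 ± 3.47 in ADQ. The 4 highest AV rats were 4568 at 48.8, 3999 at 43.04, 4009 at 37.3 and 3989 at 19.8, the 4 rats with high Prf1. The other 8 AV rats ran from 2.27 to 14.7, across the YNG range of 1.504 to 9.13. Of the 4 rats, 3 (3999, 4568 and 4009) were also the 3 highest AV rats for Mki67, at 333.2, 313.2 and 306.0, while 3989 was at 139.6. The log2 difference of Top2a between AA and AV was -1.16 (SE 0.38, interval -1.93 to -0.39, limma p = 0.00392, adjusted p = 0.999), and without these 4 rats it was -0.40 (interval -1.10 to 0.31, p = 0.263). Between ADQ and AV it was -0.76 (p = 0.0519) with all rats and 0.0028 (interval -0.70 to 0.71) without the 4. The part of lymphocytes in the Top2a values of these rats was not tested.

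**Figure D3:**
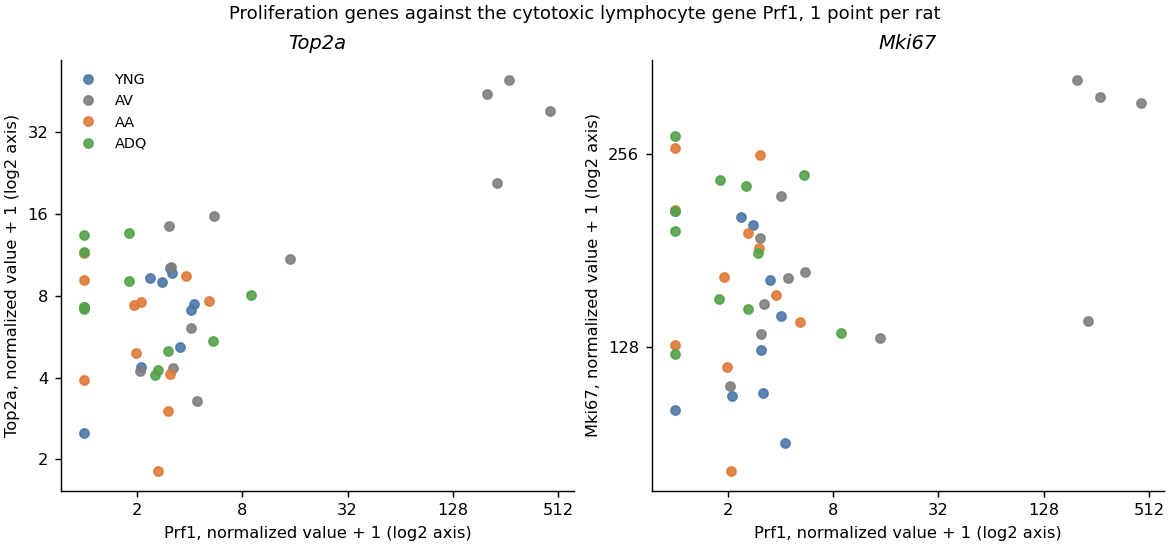
Top2a (left) and Mki67 (right) against Prf1, each as normalized value plus 1 on log2 axes, with 1 point per rat and colour for the group. The 4 AV rats with Prf1 between 198.9 and 460.7 lie to the right of all other rats and hold the 4 highest Top2a values, between 19.8 and 48.8. Of them, 3 hold the 3 highest Mki67 values.

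Rat by rat, Dcx moved with Mki67 and not detectably with the other genes of young neurons. Correlations were taken over 44 rats after centring log2 values on the group means, with permutation within groups and adjustment over the 7 pairs of Dcx with another gene. For Mki67, Pearson's r was 0.55 (permutation p = 0.00015, adjusted p = 0.00105) and Spearman's rho was 0.59 (permutation p = 5.0e-05, adjusted p = 0.00035). Without the 2 rats farthest from the median of Dcx, r was 0.53. It was 0.65 in the first series (22 rats, permutation p = 0.00376, adjusted p = 0.0263) and 0.39 in the second (22 rats, permutation p = 0.0811, adjusted p = 0.424). In the 34 older rats alone r was 0.43 (permutation p = 0.0128, adjusted p = 0.0899), and without the 5 rats that stood apart it was 0.69. For Sox11, r was 0.28 and rho 0.21 (permutation p = 0.0659 and 0.173, adjusted p = 0.231 and 0.404), and r was 0.22 without the 2 rats. For Igfbpl1, r was -0.06 and rho 0.02 (permutation p = 0.669 and 0.873, adjusted p = 0.715 and 0.873). For Neurod1, r was -0.14 (permutation p = 0.291, adjusted p = 0.543) and rho was -0.33 (permutation p = 0.0344, adjusted p = 0.12). Draxin, Calb2 and Top2a had r of 0.06, -0.08 and -0.16, each with an adjusted permutation p of at least 0.543.

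The correlation of Dcx with Mki67 was not among the strongest in the table. Over 13703 other genes whose mean normalized value reached 20, the median r with Dcx was -0.05 and the 99th percentile 0.61, and Mki67 ranked at place 371. The 8 genes with the highest r were Rapgef6 (0.74), Ankrd26 (0.72), Eml6 (0.72), Zfp612 (0.72), Nwd2 (0.72), Mdm4 (0.71), Nmt2 (0.70) and Zkscan8 (0.70). All 8 had older against YNG differences above 0, between 0.02 for Nmt2 and 0.46 for Zkscan8, whereas Dcx fell. The part of depth and dissection in the correlations was not tested, nor was whether Mki67 stands for dividing cells in them.

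The other genes of the lineage were counted by stage, without the 8 genes themselves. Of 25 immature granule neuron genes, 24 had values and 23 were tested, of which 6 fell and 0 rose in the older rats, 4 of them past the adjusted threshold. With 26.1% of its genes called, the list lies below the 32.4% of all genes, and the difference in direction from all genes was not tested. The median log2 difference was -0.14, beside 0.0039 over all genes tested. Tubb2b, a neuronal beta-tubulin, had a mean of 3731 ± 491 in the YNG rats, 2685 ± 424 with vehicle, 2531 ± 380 with ABT-263 and 2752 ± 360 with dasatinib and quercetin (SD), a log2 difference of -0.49 (limma adjusted p = 4.5e-05). Elavl3, a neuronal RNA-binding protein gene, differed by -0.61 (adjusted p = 0.0126). Marcksl1, which encodes an actin-binding protein of growing processes, differed by -0.39 (adjusted p = 0.026), and the transcription factor gene Nhlh1 by -0.52 (adjusted p = 0.0412). The YNG means of Elavl3, Marcksl1 and Nhlh1 were 3333, 884 and 901, and that of Dcx was 186.5. The part of neurons other than immature ones in the list was not tested. Without the 5 rats that stood apart, 5 genes of the list fell and 0 rose, where 4586 of all 15531 genes passed in either direction. In ADQ against AV, 3 of the 23 rose and 1 fell by the unadjusted threshold, a share of 17.4% beside 9.32% of all genes, with Elavl2 at 0.34 (limma p = 0.0123, adjusted p = 0.413) and Marcksl1 at -0.36 (p = 0.0119, adjusted p = 0.413). In AA against AV, where 4.51% of all genes passed, 0 of the 23 rose and 1 fell, Cd24 at -0.28 (p = 0.0165, adjusted p = 0.999).

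**Figure D4:**
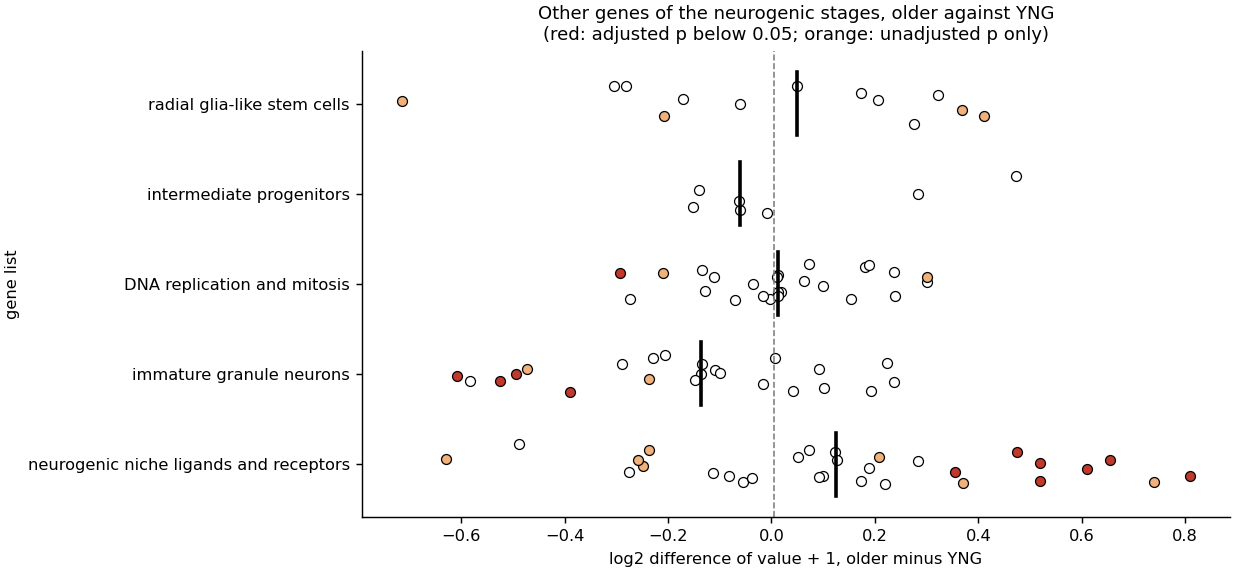
Log2 difference of normalized value plus 1, older minus YNG, for the genes of 5 lists other than the 8 genes, with 1 point per gene. Thick bars are list medians, the dashed line the median of all genes tested (0.0039), red points have an adjusted limma p below 0.05 and orange points an unadjusted p only. The immature granule neuron list has 6 coloured points, all below 0.

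The earlier stages showed no common direction. Beside the 32.4% of all genes called in older against YNG, 2 of 13 genes of radial glia-like stem cells rose and 2 fell, and 0 passed the adjusted threshold (median 0.05): Nes, the intermediate filament nestin, rose by 0.41 and Prom1, a membrane protein of stem cells, by 0.37, while Tfap2c fell by 0.71 on the log2 scale and Sox2, a stem cell transcription factor, by 0.21. Of 12 genes of intermediate progenitors, 9 had values and 7 were tested, and 0 passed at the unadjusted threshold in limma (median -0.06). Of 30 genes of DNA replication and mitosis, 29 had values and 25 were tested, of which 1 rose and 2 fell (median 0.01), with Mcm7, a subunit of the replicative helicase, at -0.29 (adjusted p = 0.0472), Ccne2 at 0.30 and Ccne1 at -0.21, both cyclin E genes. In ADQ against AV, where 9.32% of all genes passed, 533 higher and 921 lower, 6 of the 25 fell and 0 rose. Without the 5 rats, 23 of these genes were tested, and 1 fell and 2 rose, beside 4.83% of all genes. Mcm3, a further subunit of the helicase, had a mean of 31.6 ± 14.9 in AV, 17.5 ± 4.27 in the AA rats, 16.98 ± 5.02 in ADQ and 18.5 ± 4.66 in YNG (SD). Vim, vimentin, a filament gene of glia and of vessels, was 803.6 ± 472.5 in AV, 461.2 ± 153.4 with ABT-263, 374.2 ± 62.6 in ADQ and 406.8 ± 128.7 in YNG. Neither gene passed after adjustment in AA against AV (limma adjusted p = 0.755 for Mcm3 and 0.832 for Vim). The same held in ADQ against AV (limma adjusted p = 0.184 and 0.134).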

How the data were processed

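Poly(A) RNA of the dentate gyrus of 44 rats was read on an Ion sequencer, whose model differs between the labels and the paper's methods. According to the submitters' processing notes and the methods, the authors aligned the reads with STAR 2.5.3a to rn6, quantified them in Partek and scaled them by the median ratio of DESeq2. Which annotation and read assignment were used is not given in the sources used here. The values that the authors deposited are therefore a signal, a read number over the library's size factor. The labels give only the age, so arms were looked up by rat name in the deposited attribute table.

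The 24694 rows were summed per gene identifier. Neurod1 and Top2a have 2 rows each, and the other 6 genes 1. About 79.2% to 84.2% of low single-row values per library were whole multiples of a step, so whole reads could not be recovered for every gene and no count model was used. The steps give an estimated depth of 10166556 to 24328321 reads per rat. Genes with a mean of at least 5 (15598) entered limma 3.58.1 (R 4.3.3) as log2(value + 1), with all 4 groups in 1 fit, a trended empirical Bayes spread and two-sided tests. Adjusted p-values are Benjamini-Hochberg over all genes tested. Permutation tests used 100000 resamples, and scipy 1.17.1, pandas 2.3.3 and matplotlib 3.10.9 in Python 3.11.15 made tables and figures. Fits were tested on simulated data. The limma p-values set each group difference against the spread between rats within groups, and the permutation p-values come from shuffling rats.

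The 9 genes and 17 gene lists were chosen with earlier results of these data known, and the cerebellar list and the fits without 5 rats were added after values were seen. Named genes are the 9 genes, the 4 smallest p of each list in older against YNG, the 2 smallest each in AA against AV and ADQ against AV, and the 8 genes most like Dcx, with marker genes named where a rat stood apart. Not all named by the rule are printed. Promoters matched 7 of the 9 symbols, and no coordinates of rn6 were used.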

Additional observations from a re-analysis of the deposited data

How the results depend on the processing

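Over 56 differences of a gene in a comparison, 15 passed the unadjusted threshold with all rats. In the alternatives other than leaving out single rats, 768 differences and correlations kept direction and side of the threshold, 41 fell short of it, 21 passed it anew and 24 that never passed changed sign. No called difference changed sign. Counts of the 8 genes that moved by over 1.5 times are given here, and the cause was not tested except where fewer genes or rats entered by construction. With a mean of at least 20 only 5 genes are tested: 3 passed in AV against YNG, 1 in AA against YNG, 1 in ADQ against YNG and 1 in AA against AV, and 1 passed adjusted in older, AV and AA against YNG. Equal totals left 1 adjusted call in older, AV and AA against YNG. Upper quartile scaling left 1 in AA against YNG, as did no filter on low values, which also gave 2 unadjusted in ADQ against AV. Pseudocount 5 gave 1 adjusted in ADQ against YNG and 2 unadjusted in ADQ against AV, while pseudocount 0.5 and the series as a covariate moved no count by that much. Fitting only the groups compared gave 1 adjusted in AV, AA and ADQ against YNG and 1 unadjusted in AA against AV. Array weights gave 5 adjusted in AV and 2 in ADQ against YNG. That fit called 6324 and 7012 of all 15598 genes there after adjustment, against 367 and 1104 in the main fit. It also gave 1, 3 and 1 unadjusted in AA against AV, ADQ against AV and AA against ADQ. The unadjusted calls among all genes were 921, 1939 and 1584 in the same order. The first series alone gave 3, 1 and 1 unadjusted in AV, AA and ADQ against YNG and 1 adjusted in older and in AA against YNG. The second series alone gave 3, 0 and 0 unadjusted in AV against YNG, ADQ against YNG and AA against AV, and 0 adjusted in older, AV and AA against YNG. Its adjusted calls among all genes in those last comparisons were 7, 8 and 1. Relative to the mature granule cell markers, 1 passed unadjusted in ADQ against YNG and in AA against AV, and 0 adjusted in older, AV and AA against YNG. Among all genes, 75, 80 and 18 passed adjusted in those last comparisons. Permutation tests left 3 in AV against YNG. Without the 4 AV rats with high Prf1, 3 passed unadjusted in AV against YNG and 0 in AA and in ADQ against AV, and 0 adjusted in AV against YNG, also with AA rat 3988 left out, which left 1 adjusted in AA against YNG. Leaving out each rat in turn gave 2 to 4 unadjusted calls in older, 3 to 6 in AV, 2 to 3 in AA and 1 to 3 in ADQ against YNG, 1 to 2 in AA and in ADQ against AV and 0 to 1 in AA against ADQ. The adjusted calls ranged from 2 to 2 in older and AV, 0 to 2 in AA and 0 to 1 in ADQ against YNG, and 0 to 0 among the older groups. Over all genes, the adjusted calls of older against YNG were 2321, from 7 in the second series alone to 7686 with array weights. Draxin, with a mean of 5.15, dropped under the filter in 3 of the 44 fits without 1 rat. No paired analysis was possible because the replicate numbers are names in accession order and pair no rats. Few reads limit Igfbpl1, Draxin and Top2a, whose median estimated reads per rat were 10, 4 and 6.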

Other observations

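Of 32 ligands and receptors of the neurogenic niche, 30 had values and were tested in older against YNG, of which 10 rose and 4 fell, with a median log2 difference of 0.12 and 7 rises past the adjusted threshold of limma. Over all genes, 32.4% passed the unadjusted threshold (2449 higher and 2609 lower) and 14.9% the adjusted one, and the difference of the list from all genes was not tested. Cxcl12, a chemokine that holds precursors in place, rose by 0.47 (adjusted p = 0.0157) and Kdr, the main receptor of vascular endothelial growth factor, by 0.81 (adjusted p = 0.0263). The Notch ligand gene Jag1 rose by 0.61 (adjusted p = 0.0373), and Chrd, which encodes the BMP antagonist chordin, by 0.52 (adjusted p = 0.0403). Endothelial genes were higher beside them, since 3 of 5 tested markers rose (Flt1 by 0.78, adjusted p = 0.00796), and Kdr is on both lists. The summed endothelial level ran from 948.2 to 3495 in YNG and from 1750 to 8318 in AV, with AV rat 3989 highest, and its part in the niche counts was not tested. Without the 5 rats that stood apart, 8 niche genes rose and 4 fell, and 2 rises passed the adjusted threshold. Of all 15531 genes tested in that fit, 4586 passed unadjusted and 1245 adjusted. The adjusted p-values of the named niche genes are from the fit to all 44 rats. In ADQ against AV, Tgfb1, a growth factor gene that microglia express, was at -0.53 and Kdr at -0.81, and neither passed after adjustment (limma adjusted p = 0.284 and 0.367).

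Of 10 markers of inhibitory interneurons, 4 rose and 0 fell in the older rats, a share near the 32.4% of all genes, with Gad2, an enzyme of GABA synthesis, at 0.34 (limma adjusted p = 0.0126) and Sst, the neuropeptide somatostatin, at 0.26 (adjusted p = 0.0775). Of 9 tested markers of mature granule cells, 0 rose and 2 fell, with Calb1, the calcium-binding protein calbindin, at -0.53 (adjusted p = 0.00729) and C1ql2, a synapse organizer of mossy fibers, at -0.42 (adjusted p = 0.0708). Reln, the Cajal-Retzius gene reelin that interneurons share, rose by 0.37 (adjusted p = 0.0639). Its mean was 2023 ± 1405 in AA (SD). The summed Cajal-Retzius list, which holds Reln, was 6471 in AA rat 3988 and at most 2131 in any other rat. The part of that rat in the Reln difference was not tested. The same 32.4% of all genes is the background of the other marker lists, each too short to be read against it. Of 7 thalamic markers, 3 rose, 2 of them past the adjusted threshold, and of 8 tested genes of oligodendrocyte precursors 1 fell, past the adjusted threshold as well. Of 8 tested genes of mossy and CA3 pyramidal cells 1 rose and 0 fell, and of 4 ependymal genes 1 rose and 1 fell. None of the 6 microglial and 4 choroid plexus genes tested passed the unadjusted threshold of limma. These marker counts were the same without the 5 rats, except that only 3 choroid plexus genes were then tested.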
